A study of Mus musculus with 12 samples.

Results

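The genes described here are 9 genes of NAD and tryptophan metabolism, namely Cd38, Bst1, Nampt, Nadk, Nmnat1, Nmnat3, Sirt1, Kmo and Il4i1. They were taken by symbol from the authors' deposited tables, where each had 1 row at every time, out of 24351 genes listed at any time. The samples were 12 RNA-seq libraries of cultured mouse bone marrow-derived macrophages, 3 in each of 4 groups: untreated controls, cells exposed to MPLA for 4 h or for 24 h, and primed cells collected 3 d after MPLA priming was over. MPLA, monophosphoryl lipid A, is a detoxified form of lipopolysaccharide that stimulates Toll-like receptor 4. All cells carry the strain label C57BL/6, came from males of 8 to 16 weeks, and were grown for 7 days with M-CSF, the growth factor of macrophages, at 10 ng/mL, which stayed in the medium in every group, controls included. The protocol also names MyD88-/- and TRIF-/- males, but no library carries that label. Neither the duration of priming nor the harvest time of the controls is labelled, and nothing says that the libraries of 1 group are from different mice, so the p-values measure only the spread between libraries, which may be technical.

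NAD is the electron carrier of metabolism and also a substrate that some enzymes break down. Cells rebuild it from nicotinamide by salvage (Nampt, then an Nmnat enzyme), from nicotinic acid by the Preiss-Handler route, or from tryptophan through kynurenine, a route that contains Kmo. Cd38 and Bst1 cleave NAD outside or at the surface of cells, sirtuins and poly-ADP-ribose polymerases (PARPs) consume it inside, and Nadk turns it into NADP. Il4i1 is a secreted oxidase of aromatic amino acids, induced in myeloid cells, whose tryptophan products can activate the aryl hydrocarbon receptor.

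Each of the authors' deposited tables compares 1 MPLA group with the same 3 controls and gives log2 fold changes and p-values but no value per library, so levels per sample and levels between genes cannot be given. Log2 changes below are MPLA over control from the DESeq2 column unless edgeR is named, and a gene was called higher or lower at an adjusted p under 0.05. The standard error (SE) beside a value is the one at which a normal test of that log2 change returns the deposited DESeq2 p-value; none is given where that p-value is stored as 0. Over all tested genes in the authors' deposited tables, DESeq2 values had a median of -0.04 at 4 h, -0.05 at 24 h and -0.02 at 3 d, but edgeR values had medians of -0.97, -0.46 and -0.15. For most of the 9 genes the edgeR value lies lower by nearly 1 constant per table (Cd38 and Kmo at 3 d depart from it by -0.35 and 0.28), and small increases at 4 h turn into decreases on it. The 3 comparisons share their controls and no difference between times was tested. In these bulk samples fewer cells of a type and less RNA per cell cannot be told apart.

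Over the time course the NAD glycohydrolase gene Cd38 and its neighbour Bst1 rose most at 24 h and were still high 3 d after priming, whereas Nampt and Il4i1 stood highest at 4 h. Kmo fell late, Nmnat3 fell early, and Nadk increased only at 24 h and 3 d by DESeq2. At 4 h the authors' deposited table called 6 of the 9 genes higher (Il4i1, Cd38, Nampt, Sirt1, Bst1 and Nmnat1) and 1 lower (Nmnat3), while 31.8% of all tested genes were called higher and 31.0% lower by DESeq2. With edgeR 4 were higher and 4 lower in the authors' deposited table, against 13.5% and 50.1% of all 21893 listed genes. Shares for edgeR are over every listed gene, with or without a DESeq2 adjusted p, so they are not over the same genes as the DESeq2 shares. At 24 h the DESeq2 column of the authors' deposited table called 6 higher and 2 lower, beside 32.4% and 32.2% of tested genes. The edgeR column called 5 and 3, beside 16.2% and 41.8% of 21923 listed genes. At 3 d the counts in the authors' deposited table were 4 higher and 2 lower by DESeq2, beside 29.5% and 25.8% of tested genes. By edgeR they were 4 and 3, beside 15.5% and 27.7% of 23248 listed genes.

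**Figure D1:**
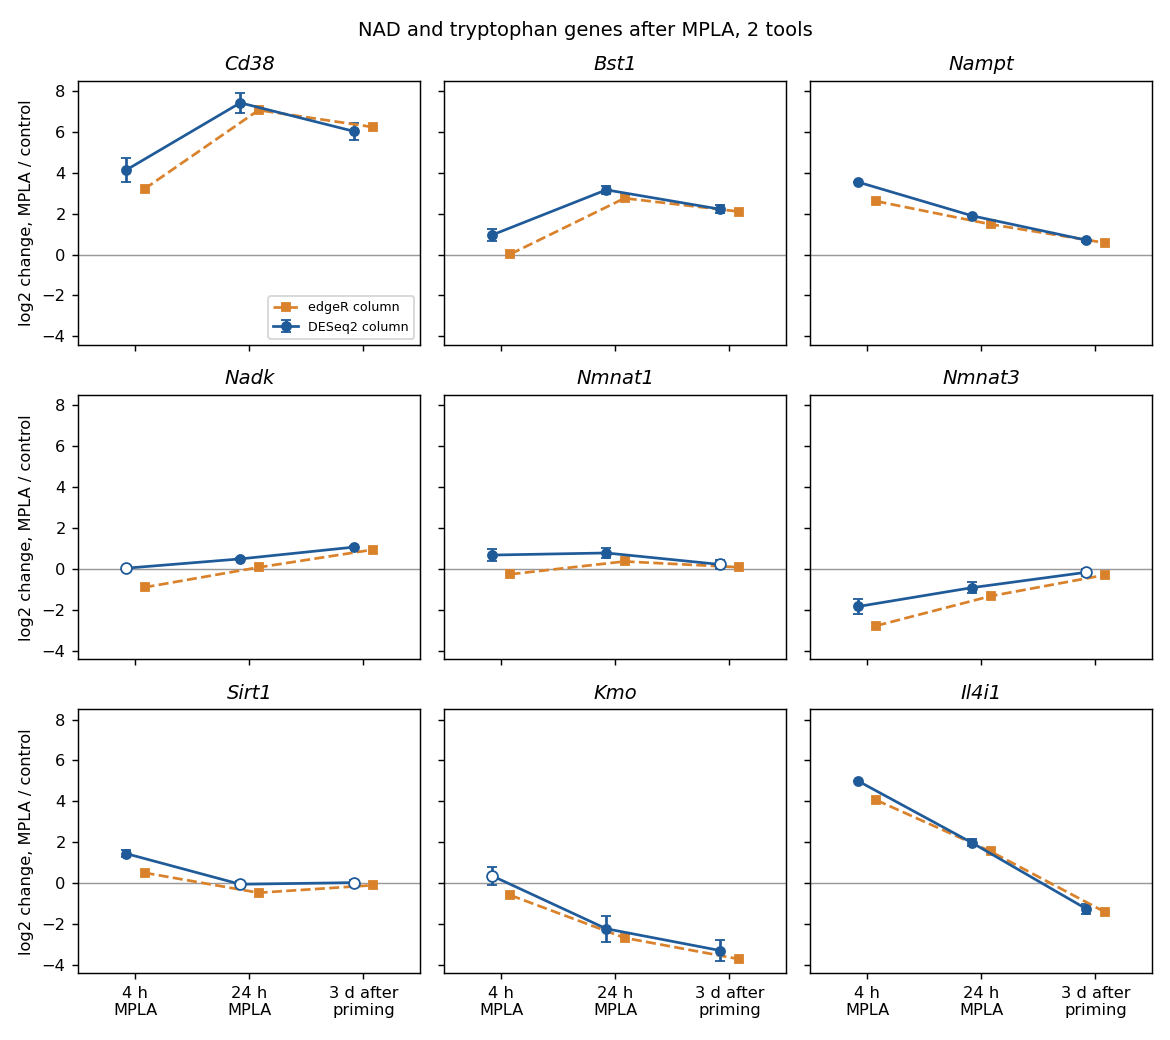
Log2 change of each of the 9 genes (vertical axis, MPLA over control) at the 3 times (horizontal axis) from the DESeq2 column (circles; open where the adjusted p is 0.05 or more; bars are 2 implied SE, absent where the p-value is stored as 0) and the edgeR column (squares) of the authors' deposited tables. Cd38 and Bst1 peak at 24 h at 7.42 and 3.17 by DESeq2, Nampt and Il4i1 at 4 h, and Kmo falls to -3.30 at 3 d.

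The start regions of these genes are of different kinds, and 5 are shown because the results turn on them. Each is the RefSeq window (GRCm38.p6) from 250 bases before to 50 bases after an annotated start, 5′ to 3′ on the strand of the gene, and capitals mark CpG dinucleotides. Of the 9 genes 8 matched this table, all but Bst1. The windows are Cd38 at chr5:43868559-43868858 (+), Il4i1 at chr7:44836038-44836337 (+), Kmo at chr1:175631943-175632242 (+), Nampt at chr12:32820085-32820384 (+) and Sirt1 at chr10:63338986-63339285 (-).
Cd38: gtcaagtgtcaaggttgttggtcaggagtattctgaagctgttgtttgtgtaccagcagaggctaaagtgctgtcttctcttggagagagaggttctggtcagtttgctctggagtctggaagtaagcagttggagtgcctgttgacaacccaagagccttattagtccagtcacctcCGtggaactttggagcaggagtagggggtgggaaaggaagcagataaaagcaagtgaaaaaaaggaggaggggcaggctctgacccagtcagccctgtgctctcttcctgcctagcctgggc
Il4i1: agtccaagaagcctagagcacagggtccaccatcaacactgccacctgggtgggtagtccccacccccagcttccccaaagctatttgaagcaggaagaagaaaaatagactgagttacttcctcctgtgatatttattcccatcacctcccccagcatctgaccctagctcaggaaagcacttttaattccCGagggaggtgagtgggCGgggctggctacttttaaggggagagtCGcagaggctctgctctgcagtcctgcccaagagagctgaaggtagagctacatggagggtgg
Kmo: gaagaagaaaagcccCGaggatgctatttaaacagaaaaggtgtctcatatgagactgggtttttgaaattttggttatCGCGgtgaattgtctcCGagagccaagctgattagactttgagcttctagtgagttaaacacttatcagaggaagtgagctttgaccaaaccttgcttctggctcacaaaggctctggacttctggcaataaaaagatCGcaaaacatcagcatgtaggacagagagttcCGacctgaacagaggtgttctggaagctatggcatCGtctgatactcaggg
Nampt: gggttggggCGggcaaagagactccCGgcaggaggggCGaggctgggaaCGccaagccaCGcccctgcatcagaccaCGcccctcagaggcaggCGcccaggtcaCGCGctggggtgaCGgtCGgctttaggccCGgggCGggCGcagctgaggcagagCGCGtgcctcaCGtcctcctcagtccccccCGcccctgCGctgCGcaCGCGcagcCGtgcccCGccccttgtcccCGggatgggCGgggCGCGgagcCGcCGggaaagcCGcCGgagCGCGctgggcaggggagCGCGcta
Sirt1: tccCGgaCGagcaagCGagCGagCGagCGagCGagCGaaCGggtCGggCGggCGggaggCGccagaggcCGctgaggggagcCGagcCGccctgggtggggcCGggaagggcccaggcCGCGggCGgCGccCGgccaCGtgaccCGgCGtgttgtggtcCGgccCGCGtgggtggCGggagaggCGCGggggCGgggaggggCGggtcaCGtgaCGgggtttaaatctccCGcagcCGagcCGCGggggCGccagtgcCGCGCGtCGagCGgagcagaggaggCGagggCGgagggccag

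Cd38 has 1 CpG in its window, and 5.43% of the 32851 mouse windows in the table have fewer. Il4i1 has 3 and Kmo 7, the median of all windows being 7. Nampt has 36 and Sirt1 47, more than 93.8% and 98.6% of windows. The genes with large increases were thus not alike, since Cd38 and Il4i1 start in CpG-poor sequence and Nampt in a CpG-rich one. For Cd38 the RefSeq start lies 256 bases inside the GENCODE gene model, and the distance is 790 bases for Nampt, 11812 for Kmo, 19901 for Il4i1 and 42669 for Sirt1, whose GENCODE models begin farther upstream.

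The windows were searched on both strands for 6 motifs. These were the core of the interferon-stimulated response element (GAAA, 2 free bases, GAAA), a kappaB pattern (GGG, 3 free bases, TTCC), the STAT site TTCNNNGAA, the AP-1 site TGANTCA, the E-box CACGTG and the aryl hydrocarbon receptor core GCGTG. They are found in 3.44%, 5.56%, 8.30%, 7.81%, 7.15% and 32.4% of all windows, in that order. Cd38, Il4i1, Kmo and Nmnat1 hold none of these letters in their windows. Sirt1 holds a kappaB match on the opposite strand (GGAAGGGCCC as read on the printed strand, first base at -146 from the start), E-boxes at -115 and -43, and receptor cores at -104 and -85. Nampt holds 5 receptor cores and no other match. The downstream window of Nadk has an E-box at -40 and 3 receptor cores, and Nmnat3 has 1 receptor core. A match describes letters only.

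Cd38 encodes the main NAD glycohydrolase of macrophages, a surface enzyme that also makes cyclic ADP-ribose (ENSMUSG00000029084, GRCm38 chromosome 5, 43868553 to 43912375, + strand in GENCODE M21). Cd38 was higher by 4.14 on the log2 scale at 4 h in the authors' deposited table (SE 0.30, 17.6-fold, DESeq2 adjusted p = 1.27e-42). At 24 h Cd38 stood at 7.42 in the authors' deposited table (SE 0.24, 172-fold, DESeq2 adjusted p = 6.60e-210). At 3 d Cd38 was still at 6.03 in the authors' deposited table (SE 0.21, 65.2-fold, DESeq2 adjusted p = 1.00e-175).
The edgeR values in the authors' deposited tables were 3.21, 7.07 and 6.24. No scaling used by the authors changed the direction at any time. Among all tested genes Cd38 had the 592nd highest DESeq2 log2 change at 4 h, the 66th at 24 h and the 9th of 15111 at 3 d in the authors' deposited tables. By edgeR 95.2%, 99.4% and 99.8% of tested genes had a lower log2 change than Cd38, beside 96.6%, 99.6% and 99.9% by DESeq2. Its place at 3 d was thus nearer the top than at 4 h, although its log2 change at 24 h was larger.

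Bst1, the paralogue of Cd38 also known as CD157, is a surface enzyme with the same kind of activity (ENSMUSG00000029082, chromosome 5, 43818885 to 43843986, + strand). The gene models of Bst1 and Cd38 lie 24.6 kb apart with no other annotated protein-coding gene between them. Bst1 was called higher at 4 h in the authors' deposited table by DESeq2 (0.96, SE 0.15, adjusted p = 5.13e-10) but not by edgeR (0.03, adjusted p = 0.843). At 24 h Bst1 was 8.98-fold higher by the authors' deposited table (log2 change 3.17, SE 0.09, DESeq2 adjusted p = 4.24e-250) and edgeR gave 2.76. At 3 d Bst1 was 4.65-fold higher by the authors' deposited table (2.22, SE 0.09, DESeq2 adjusted p = 4.40e-126) and edgeR gave 2.11. Both genes therefore had the order 24 h, 3 d, 4 h with either tool. The log2 change of Cd38 exceeded that of Bst1 by 3.18 at 4 h, 4.26 at 24 h and 3.81 at 3 d in the DESeq2 values of the authors' deposited tables, and by 3.19, 4.31 and 4.13 with edgeR.

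The genes on either side of the pair were read to see whether the whole region rose; they were chosen after the values of the pair were known. Within 500 kb of Cd38, 5 protein-coding genes had an adjusted p at every time, the pair included. Fbxl5 encodes a ubiquitin ligase subunit of iron sensing, and its start region overlaps 2.95% of the exonic bases of Bst1 on the opposite strand. Fbxl5 stood at 0.42, 0.31 and 0.00 at 4 h, 24 h and 3 d in the authors' deposited tables, and was not called by DESeq2 at 3 d. With edgeR Fbxl5 had -0.51, -0.10 and -0.13 there. Tapt1 was called higher at each time by DESeq2 (1.22, 1.06 and 0.54), and Cc2d2a, a ciliary gene, was called lower at each time (-1.95, -3.80 and -0.38) in the authors' deposited tables. The changes at 24 h in this region thus ran from -3.80 for Cc2d2a to 7.42 for Cd38.

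**Figure D2:**
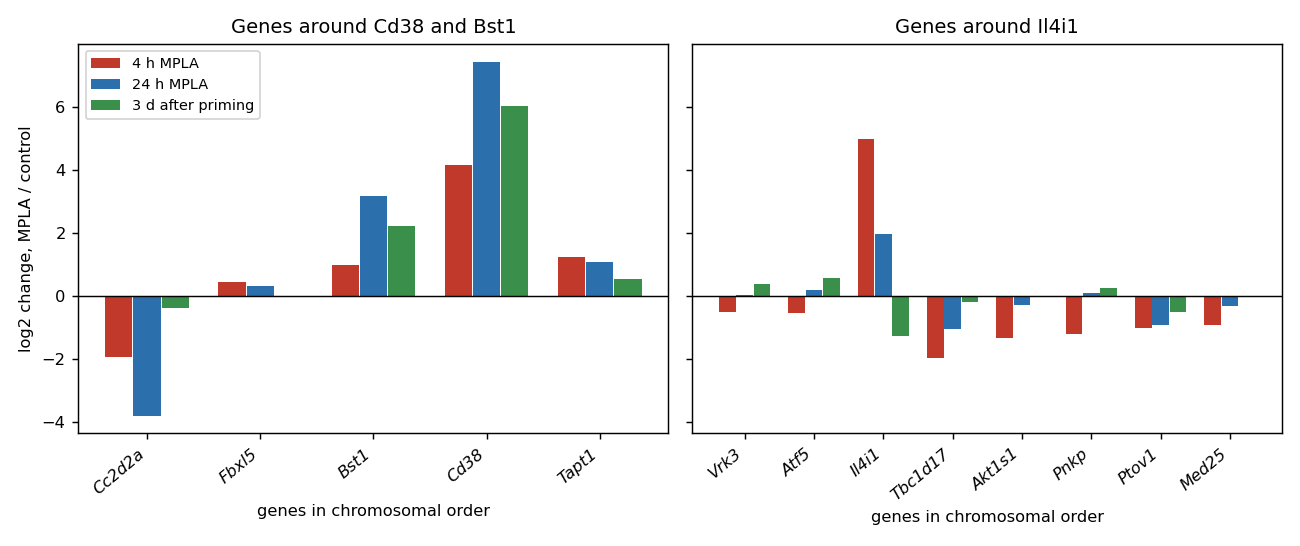
Log2 change (vertical axis, MPLA over control, DESeq2 column of the authors' deposited tables) of the tested protein-coding genes within 500 kb of Cd38 (left) and 50 kb of Il4i1 (right), in chromosomal order, with a bar for each time. Only Bst1 and Cd38 pass 2 at 24 h in the left panel, and Il4i1 at 4 h stands at 4.99 beside lower neighbours in the right panel.

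By the 3 log2 changes together, the protein-coding gene nearest to Cd38 among 11837 compared was Fpr1, a formyl peptide receptor (4.78, 7.67 and 6.17 at 4 h, 24 h and 3 d in the authors' deposited tables), at a Euclidean distance of 0.70. H2-Q7 (0.90), the complement factor gene Cfb (1.32), H2-Q6 (1.46) and the lysyl oxidase gene Lox (1.62) followed by that distance. H2-Q6 and H2-Q7 are near-identical class I genes whose reads can be shared, so their values are uncertain.

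Nampt, the rate-limiting enzyme of NAD salvage from nicotinamide (ENSMUSG00000020572, chromosome 12, 32819545 to 32853349, + strand), was 11.7-fold higher at 4 h by the authors' deposited table (log2 change 3.55, adjusted p stored as 0 with both tools). At 24 h Nampt was 3.72-fold higher by the authors' deposited table (1.90, adjusted p again stored as 0). At 3 d Nampt was 1.63-fold higher by the authors' deposited table (0.71, SE 0.04, DESeq2 adjusted p = 1.63e-74). With edgeR Nampt stood at 2.61, 1.48 and 0.58 in the authors' deposited tables, so the order of the times and the direction were the same. The genes nearest to Nampt by the 3 log2 changes were Etnk1 (distance 0.11), an ethanolamine kinase, Lcp2 (0.14), an adaptor of immune receptors, Mapkapk2 (0.22), a kinase downstream of p38, Prpf38a (0.22) and Foxp4 (0.23).

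Nmnat1 and Nmnat3 encode the enzymes that turn the product of Nampt into NAD, Nmnat1 in the nucleus and Nmnat3 chiefly in mitochondria. Nmnat3 (ENSMUSG00000032456, chromosome 9, 98287435 to 98420438, + strand) was 3.59-fold lower at 4 h by the authors' deposited table (-1.84, SE 0.18, DESeq2 adjusted p = 4.81e-23) and 1.89-fold lower at 24 h (-0.92, SE 0.13, DESeq2 adjusted p = 6.66e-12). At 3 d Nmnat3 stood at -0.17 in the authors' deposited table and passed the test with edgeR only (-0.30, adjusted p = 3.69e-05; DESeq2 adjusted p = 0.109). Nmnat1 (ENSMUSG00000028992, chromosome 4, 149467572 to 149485202, - strand) was higher at 4 h with DESeq2 (0.67, SE 0.14, adjusted p = 4.09e-06) but lower with edgeR (-0.26, adjusted p = 0.0105) in the authors' deposited table. At 24 h Nmnat1 was higher with both tools in the authors' deposited table (0.78 and 0.36), and at 3 d with neither (0.21 and 0.08). The gap between the log2 changes of Nmnat1 and Nmnat3 differed by less than 0.01 between the tools. In the authors' deposited tables that gap was 2.52 at 4 h, 1.69 at 24 h and 0.38 at 3 d. The log2 change of Nampt exceeded that of Nmnat3 by 5.39, 2.82 and 0.88 at the same times in the authors' deposited tables.

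Other genes of NAD supply were read from a list of 49 genes of the pathway, the 9 described genes left out, of which 44 had a row and the other 5 (Aadat, Nmnat2, Nmrk2, Nnmt and Slc25a52) were not analysed here. The counts of each list below stand beside these shares of all genes in the authors' deposited tables. By DESeq2 31.8%, 32.4% and 29.5% of tested genes were higher at 4 h, 24 h and 3 d, and 31.0%, 32.2% and 25.8% lower. By edgeR 13.5%, 16.2% and 15.5% of listed genes were higher and 50.1%, 41.8% and 27.7% lower. In the list of salvage and Preiss-Handler genes, 1 of 5 tested genes was higher and 3 lower at 4 h in the authors' deposited table, with a median of -1.24. Pnp, a purine nucleoside phosphorylase that frees nicotinamide and purine bases from their nucleosides, was the higher gene: 4.10 at 4 h, 2.80 at 24 h and 0.90 at 3 d in the authors' deposited tables. Naprt, the first enzyme of the Preiss-Handler route, was lower at 4 h and 24 h (-1.33 and -1.86), as was Nadsyn1, NAD synthetase (-1.24 and -0.49), in the authors' deposited tables. Nmrk1, the nicotinamide riboside kinase, was lower at each time (-2.25, -1.01 and -0.87) in the authors' deposited tables. At 24 h 1 of 4 tested genes of this list was higher and 3 were lower, and at 3 d 1 was higher and 1 lower (3 lower with edgeR), in the authors' deposited tables. The log2 change of Nampt exceeded that of Naprt by 4.88 at 4 h, 3.75 at 24 h and 0.90 at 3 d in the authors' deposited tables. With edgeR these differences between log2 changes were 4.88, 3.77 and 0.89 in the authors' deposited tables.

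Nadk, the cytosolic NAD kinase (ENSMUSG00000029063, chromosome 4, 155562378 to 155591001, + strand), did not pass the DESeq2 test at 4 h (0.03, SE 0.04, adjusted p = 0.521) but was lower with edgeR (-0.90, adjusted p = 2.67e-108) in the authors' deposited table. At 24 h Nadk was higher with DESeq2 (0.48, SE 0.03, adjusted p = 3.76e-47) and not called by edgeR (0.07, adjusted p = 0.0675) in the authors' deposited table. At 3 d Nadk was 2.09-fold higher by the authors' deposited table (1.06, SE 0.03, DESeq2 adjusted p = 1.38e-224), with 0.93 by edgeR. Its mitochondrial counterpart Nadk2 was lower at each time, by DESeq2 at -3.05, -1.18 and -0.45 in the authors' deposited tables. The log2 change of Nadk exceeded that of Nadk2 by 3.08, 1.67 and 1.51 at 4 h, 24 h and 3 d in the authors' deposited tables. In the list of NADP and mitochondrial NAD supply, 4 of 5 genes were lower at 4 h, 4 at 24 h and 3 at 3 d by DESeq2, and 5, 5 and 3 by edgeR, in the authors' deposited tables. Beside them, 31.0%, 32.2% and 25.8% of all tested genes were lower by DESeq2, and 50.1%, 41.8% and 27.7% of all listed genes by edgeR. Among the lower genes of the list were Nnt, the mitochondrial transhydrogenase that makes NADPH (-0.60, -1.16 and -0.80), and Slc25a51, the mitochondrial NAD carrier (-0.50, -0.34 and -0.14), in the authors' deposited tables.

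Sirt1 encodes a nuclear deacetylase that uses NAD (ENSMUSG00000020063, chromosome 10, 63319005 to 63381704, - strand). Sirt1 was 2.71-fold higher at 4 h by the authors' deposited table (1.44, SE 0.08, DESeq2 adjusted p = 1.61e-63) and higher with edgeR too (0.50). At 24 h Sirt1 stood at -0.06 with DESeq2 (SE 0.09, adjusted p = 0.595) but was lower with edgeR (-0.47, adjusted p = 3.43e-12) in the authors' deposited table, where 49.8% of tested genes had a lower log2 change. At 3 d Sirt1 passed neither test in the authors' deposited table (0.02 with DESeq2, adjusted p = 0.828, and -0.11 with edgeR, adjusted p = 0.144). Of the 6 other sirtuin genes 1 was higher and 4 lower at 4 h, 1 and 5 at 24 h, and 1 and 2 at 3 d in the authors' deposited tables. With edgeR the counts were 0 and 6, 1 and 5, and 1 and 4 in the authors' deposited tables. There edgeR called 50.1%, 41.8% and 27.7% of all listed genes lower at 4 h, 24 h and 3 d. The mitochondrial sirtuins were the lowest at 4 h, with Sirt3 at -1.94, Sirt4 at -1.85 and Sirt5 at -1.71 in the authors' deposited table. Sirt3 was lower at 24 h and 3 d as well (-1.37 and -0.49 in the authors' deposited tables). Sirt6, a chromatin-bound sirtuin, was called higher at each time by DESeq2 (0.34, 1.21 and 0.46), but at 4 h edgeR gave -0.59 in the authors' deposited table.

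Other NAD consumers were split. Of 6 genes in the list of PARPs and SARM1, 3 were higher and 2 lower at 4 h, 3 and 3 at 24 h, and 2 and 0 at 3 d in the authors' deposited tables by DESeq2, and edgeR gave 1 and 5, 1 and 5, and 2 and 1. By edgeR 50.1%, 41.8% and 27.7% of all listed genes were lower at those times. Parp1, the main DNA damage-activated PARP, was lower at 4 h (-1.25) and 24 h (-0.53) and was not called by DESeq2 at 3 d (0.08) in the authors' deposited tables. Parp2, which is also activated by DNA damage, stood at -0.86, -0.16 and 0.01 in the authors' deposited tables, with the last value not called. Parp3 was higher at each time with both tools, by DESeq2 at 2.03, 1.74 and 1.05 in the authors' deposited tables. Sarm1, an NAD hydrolase best known from axons, was called lower by DESeq2 at 24 h only (-2.45). The log2 change of Cd38 exceeded that of Sirt1 by 2.70 at 4 h, 7.48 at 24 h and 6.00 at 3 d in the DESeq2 values of the authors' deposited tables.

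Kmo, kynurenine 3-monooxygenase (ENSMUSG00000039783, chromosome 1, 175620381 to 175662116, + strand), commits kynurenine to the branch that leads to quinolinic acid and NAD. At 4 h Kmo did not pass the DESeq2 test (0.35, SE 0.23, adjusted p = 0.172) and was lower with edgeR (-0.60, adjusted p = 2.41e-04) in the authors' deposited table. At 24 h Kmo was 4.71-fold lower by the authors' deposited table (-2.24, SE 0.32, DESeq2 adjusted p = 8.86e-12). At 3 d Kmo was 9.87-fold lower by the authors' deposited table (-3.30, SE 0.27, DESeq2 adjusted p = 1.99e-34), the 16th lowest log2 change of 15111 tested genes. The edgeR values were -2.68 and -3.72 at 24 h and 3 d in the authors' deposited tables. By edgeR 0.179% of tested genes had a lower log2 change than Kmo at 3 d, beside 0.0993% by DESeq2. The genes nearest to Kmo by the 3 log2 changes were Dcstamp (distance 0.71), a fusion protein of osteoclasts and giant cells that stood at -0.24, -1.95 and -3.04 in the authors' deposited tables, then Fgf13 (0.96), Hmga2 (1.11), Penk (1.24) and Fbln5 (1.24).

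The rest of the kynurenine route moved in both directions. Of 7 tested genes 2 were higher and 1 lower at 4 h, of 6 there were 2 and 2 at 24 h, and of 6 there were 1 and 3 at 3 d by DESeq2 in the authors' deposited tables. With edgeR, which gives a p-value for every listed gene, 3 were higher and 4 lower at 4 h, 2 and 3 at 24 h, and 2 and 3 at 3 d in the authors' deposited tables. Ido1, the best known enzyme that opens the route, was listed at 0 in the controls in each of the authors' deposited tables and was not called by DESeq2 at 4 h (adjusted p = 0.0633). With edgeR Ido1 was called higher at 4 h and 3 d in the authors' deposited tables (adjusted p = 0.0297 and 0.0246). Its paralogue Ido2 was called higher at each time by DESeq2 (5.29, 4.19 and 1.35 in the authors' deposited tables) and by edgeR (4.54, 4.08 and 2.39). At 3 d the gap between the tools for Ido2 departed by -1.17 from the constant of that comparison, so its size there is uncertain. Kynu, kynureninase, which cleaves kynurenine and the product of Kmo, was higher at 4 h and 24 h (2.80 and 1.43) and lower at 3 d (-0.67) in the authors' deposited tables. The log2 change of Kynu exceeded that of Kmo by 2.45, 3.67 and 2.63 at 4 h, 24 h and 3 d in the DESeq2 values of the authors' deposited tables. Haao, the next enzyme toward quinolinic acid, was lower at 24 h (-2.35, SE 0.87) and 3 d (-1.04, SE 0.44) in the authors' deposited tables. With edgeR Haao stood at -3.03 and -1.59. The gap between the tools departed from the constant by 0.26 and 0.42, so the size of these decreases is uncertain. Qprt, which enters quinolinic acid into NAD synthesis, was called at no time by DESeq2 (-1.54, -0.51 and -0.32 in the authors' deposited tables), and edgeR called it lower at 4 h (adjusted p = 0.0455). Afmid, the formamidase of the route, was lower at each time (-1.46, -0.59 and -0.47), and Ccbl1, a kynurenine aminotransferase, was lower at -2.65, -1.93 and -1.42 in the authors' deposited tables.

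Il4i1 (ENSMUSG00000074141, chromosome 7, 44816387 to 44840809, + strand) was 31.7-fold higher at 4 h by the authors' deposited table (log2 change 4.99, edgeR 4.05, both adjusted p stored as 0). At 24 h Il4i1 was 3.90-fold higher by the authors' deposited table (1.96, SE 0.09, DESeq2 adjusted p = 4.89e-114). At 3 d Il4i1 was 2.40-fold lower by the authors' deposited table (-1.26, SE 0.12, DESeq2 adjusted p = 5.97e-26; edgeR -1.41). It was the only one of the 9 genes called higher at 4 h and lower at 3 d with both tools. Its value is less certain than the others because 83.9% of its exonic bases in GENCODE M21 lie within exons of Tbc1d17 on the opposite strand, and the library kit keeps strand but the use of strand in counting is not given. Tbc1d17 stood at -1.98, -1.06 and -0.19 at 4 h, 24 h and 3 d in the authors' deposited tables. Nup62, which shares 2.38% of the exonic bases of Il4i1 on the same strand, stood at -1.11, 0.01 and 0.13 in the authors' deposited tables. The part of reads of Tbc1d17 in the values of Il4i1 was not tested.

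The genes that bring in tryptophan, load it onto its transfer RNA and respond to its products were read beside Il4i1. Of 4 genes of uptake and charging, 3 were higher and 0 lower at 4 h, 3 and 1 at 24 h, and 2 and 1 at 3 d by DESeq2 in the authors' deposited tables. With edgeR the counts were 2 and 2, 3 and 1, and 2 and 2 in the authors' deposited tables. Wars2, the mitochondrial tryptophanyl-tRNA synthetase, was the gene lower at 24 h (-0.69) in the authors' deposited table. Wars, the cytosolic tryptophanyl-tRNA synthetase, stood at 3.40, 1.48 and 0.34 in the authors' deposited tables, called each time. Slc7a5, the large neutral amino acid transporter, was higher at 4 h and 24 h (1.68 and 1.53) and lower at 3 d (-0.39) in the authors' deposited tables, as Il4i1 was. Its partner chain Slc3a2 was called higher at each time by DESeq2 (0.82, 1.38 and 0.57), but edgeR gave -0.12 at 4 h in the authors' deposited table. In the aryl hydrocarbon receptor list 3 of 6 tested genes were higher and 1 lower at 4 h by DESeq2, 3 and 0 of 7 at 24 h, and 2 and 2 of 5 at 3 d, in the authors' deposited tables. With edgeR the receptor list had 1 higher and 3 lower at 4 h, 2 and 2 at 24 h, and 1 and 2 at 3 d in the authors' deposited tables. Tiparp, a receptor target that also encodes a PARP, was higher at 4 h and 24 h (3.76 and 2.08) with both tools in the authors' deposited tables. Ahr itself was higher at 4 h and 24 h by DESeq2 (1.16 and 0.83) and lower at 3 d (-0.45) in the authors' deposited tables, with edgeR giving 0.23 (adjusted p = 0.0749) at 4 h. The classic targets Cyp1a1 and Cyp1b1 were called in 0 of the 3 comparisons by edgeR in the authors' deposited tables, and by DESeq2 in none of those where they had an adjusted p (24 h for Cyp1a1, 4 h and 24 h for Cyp1b1). Cyp1a1 is listed at 0 in the MPLA group at 4 h and 3 d, and its SE at 24 h was 1.20. The SE of Cyp1b1 was 1.45 at 4 h and 1.03 at 24 h. Values this imprecise do not show whether the 2 targets changed. Ahrr, the receptor's repressor, was lower at 4 h and 3 d (-0.47 and -0.44) in the authors' deposited tables.

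**Figure D3:**
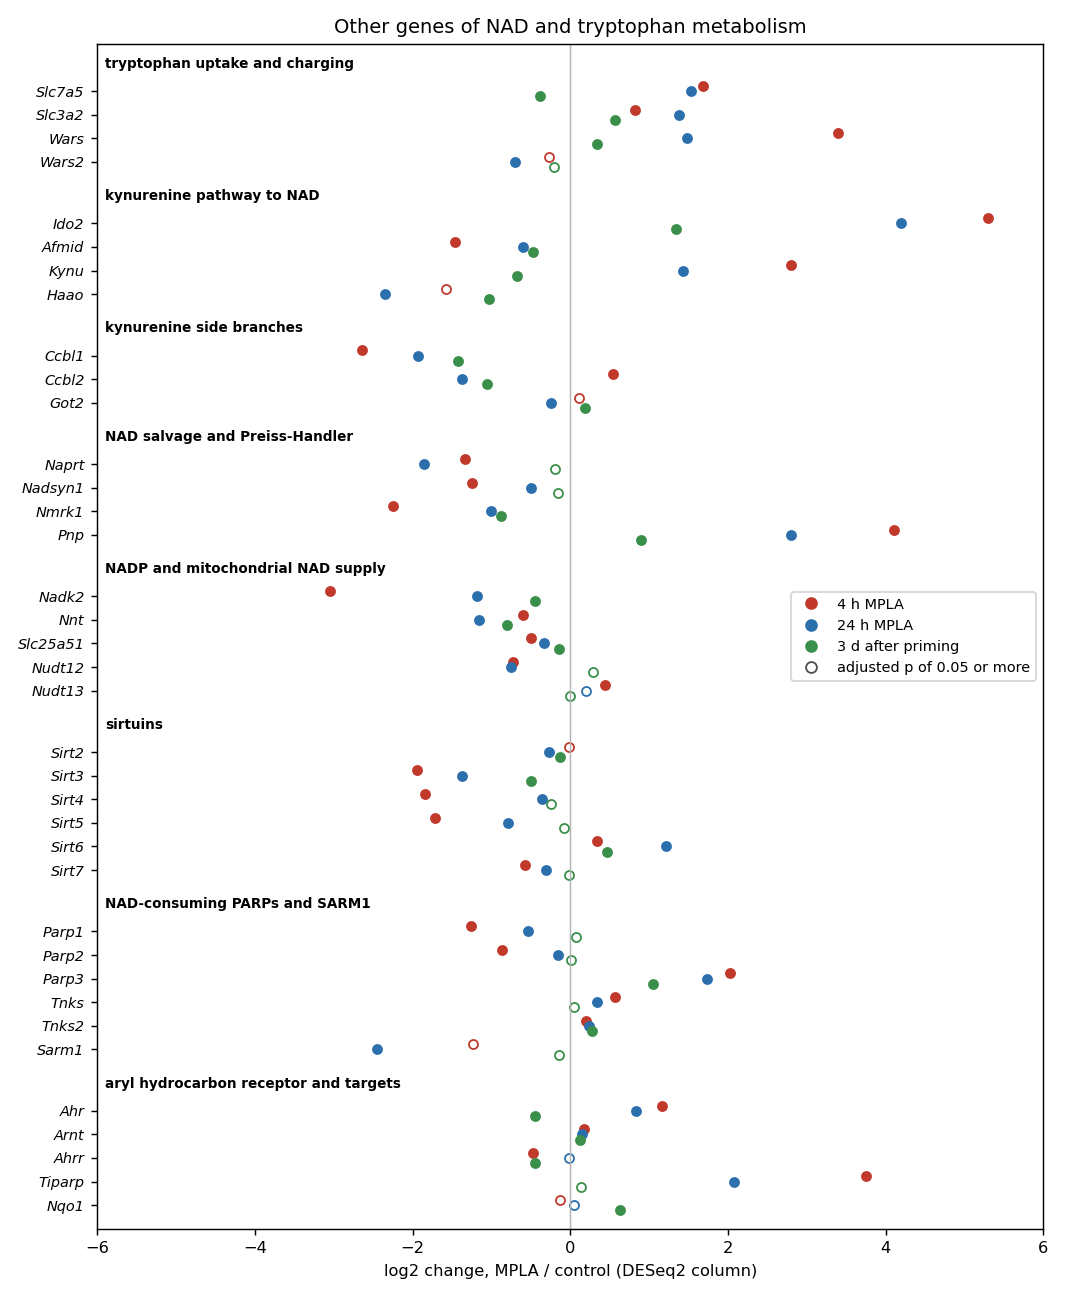
Log2 change (horizontal axis, MPLA over control, DESeq2 column of the authors' deposited tables) of the other pathway genes called at 1 time or more, grouped by list, with a point for each time and open points where the adjusted p is 0.05 or more; values of genes listed at 0 in a group or without an adjusted p are not drawn. Pnp, Ido2, Kynu, Wars and Tiparp lie to the right at 4 h, and Nadk2, Nmrk1, Ccbl1 and the mitochondrial sirtuins Sirt3, Sirt4 and Sirt5 to the left.

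Over all lists, 15 of 42 tested pathway genes were called higher and 16 lower at 4 h by DESeq2 in the authors' deposited table, beside 31.8% and 31.0% of all tested genes. At 24 h 13 and 21 of 41 were called in the authors' deposited table, beside 32.4% and 32.2%, and at 3 d 10 and 14 of 39, beside 29.5% and 25.8%. With edgeR the counts were 8 and 31, 10 and 27, and 9 and 20 in the authors' deposited tables. There edgeR called 13.5%, 16.2% and 15.5% of all listed genes higher and 50.1%, 41.8% and 27.7% lower. The median of the pathway genes by DESeq2 was -0.37, -0.27 and -0.13 in the authors' deposited tables, below that of all tested genes each time. Whether the lists differ from other genes was not tested. The place of each described gene among all tested genes, which a constant shift of scale does not move, is shown in the plot of ranks. By that measure 76.3% of tested genes had a lower log2 change than Bst1 at 4 h in the authors' deposited table, and 75.1% with edgeR, although its call was lost. Nadk rose in place from 52.1% at 4 h to 72.2% at 24 h and 94.1% at 3 d in the authors' deposited tables, and Kmo moved from 62.1% to 7.18% and 0.0993%. Il4i1 went from 98.0% to 93.1% and 2.91% in the authors' deposited tables.

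**Figure D4:**
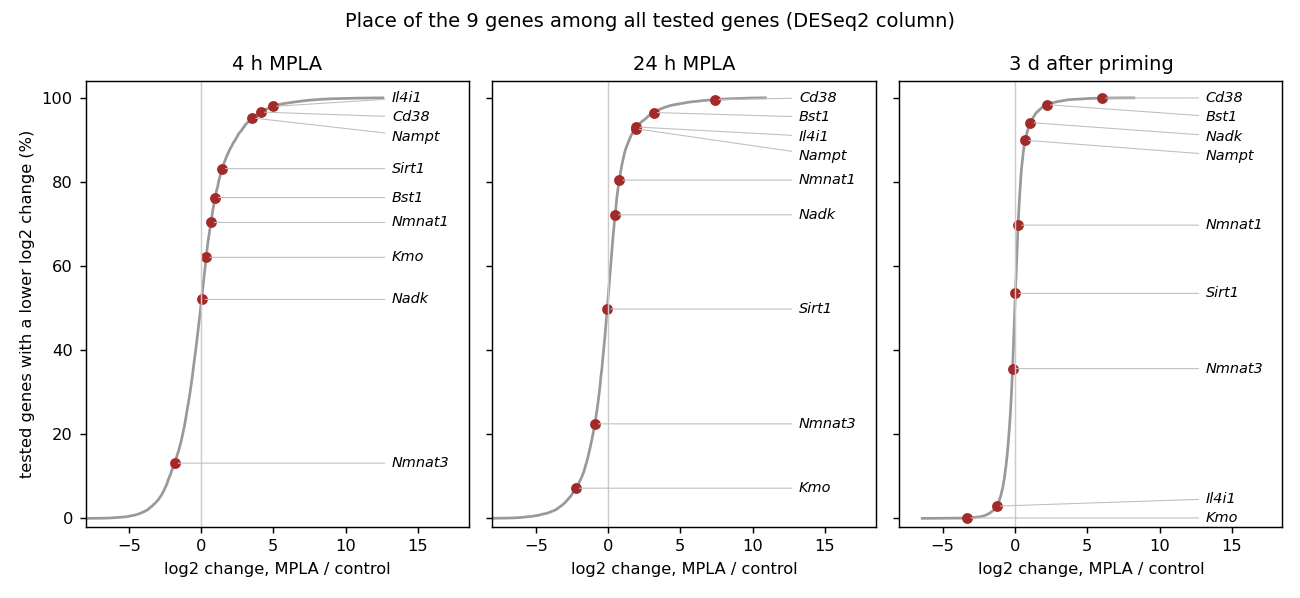
Share of tested genes with a lower log2 change (vertical axis, %) against the log2 change (horizontal axis, MPLA over control, DESeq2 column of the authors' deposited tables) for all tested genes (grey line) and the 9 genes (points) at each time. Cd38 moves toward the top, from 96.6% at 4 h to 99.9% at 3 d, and Kmo and Il4i1 lie at 0.0993% and 2.91% at 3 d.

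The macrophage markers Csf1r, Adgre1, Cd68, Itgam, Cd14, Mertk, Fcgr1 and Lyz2 were tested at each time, and none was listed at 0 in a group. By DESeq2 6 of these 8 were higher and 1 lower at 4 h, 4 and 4 at 24 h, and 5 and 3 at 3 d in the authors' deposited tables. With edgeR the counts were 3 and 5, 3 and 5, and 4 and 3. Csf1r, the M-CSF receptor gene, was lower at each time (-1.01, -1.52 and -0.54) and Adgre1, which encodes F4/80, was higher (1.22, 2.15 and 1.17) in the authors' deposited tables. Lyz2 (-1.50 and -1.43) and Mertk (-1.69 and -0.71) were lower at 24 h and 3 d there. Of 43 markers of other blood and stromal cells, 24, 18 and 15 were tested at 4 h, 24 h and 3 d, and 8 were called higher and 1 lower at 4 h, 5 and 6 at 24 h, and 4 and 1 at 3 d by DESeq2 in the authors' deposited tables. With edgeR the counts were 6 and 7, 5 and 10, and 6 and 3 among 28, 26 and 29 listed markers in the authors' deposited tables. Of all tested genes DESeq2 called 31.8%, 32.4% and 29.5% higher and 31.0%, 32.2% and 25.8% lower at these times. Of all listed genes edgeR called 13.5%, 16.2% and 15.5% higher and 50.1%, 41.8% and 27.7% lower. Whether the markers differ from other genes was not tested. Cd38 and Bst1 are also expressed by some B cells and neutrophils. Of the B and plasma cell markers 5, 3 and 1 were tested by DESeq2 at 4 h, 24 h and 3 d, and 0, 0 and 1 were called higher in the authors' deposited tables, with the same counts by edgeR. Cd79b was lower at 24 h (-1.54) and was the gene tested and called higher at 3 d (0.47) in the authors' deposited tables. Of the neutrophil markers 2 were tested at each time, of which Camp was higher at 24 h and 3 d (3.49 and 1.43, and 3.61 and 2.97 by edgeR) and S100a8 was not called, in the authors' deposited tables. The T and natural killer cell markers were split: Lck (7.19) and Klrk1 (8.82) were higher at 4 h and Klrk1 at 24 h (5.11), whereas Cd4 was lower at 4 h and 24 h (-0.91 and -1.35) and higher at 3 d (1.01) in the authors' deposited tables. Klrb1c was called lower at 24 h and is listed at 0 in the MPLA group there in the authors' deposited table. Of the dendritic cell markers Xcr1 was higher at 4 h and 24 h (3.93 and 3.08), as was Ccr7, listed at 0 in the controls, and Zbtb46 was higher at 4 h by DESeq2 and lower at 24 h (1.19 and -1.50) in the authors' deposited tables. Of the stromal markers 2 of 5 tested were higher at 4 h, 1 of 3 at 24 h and 1 of 4 at 3 d by DESeq2, and 0 lower. With edgeR 2 were higher and 1 lower at 4 h, 1 and 2 at 24 h, and 2 and 0 at 3 d. Dcn, also listed at 0 in the controls, was called higher at each time in the authors' deposited tables. There edgeR called Col1a2 lower at 4 h (-2.81), and Col1a1 and Col1a2 lower at 24 h (-2.94 and -2.56). The part of other cell types in the results was not tested.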

How the data were processed

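RNA-seq of 12 libraries (3 in each of 4 groups) was used, prepared from poly(A) RNA so that strand is kept, per the labels' protocols. Per the submitters' processing notes, the authors used TopHat2, bcl2fastq, HTSeq, DESeq, DESeq2 and edgeR with the build mm10 (no versions); counting settings and annotation release are not given in the sources used here. Per the file headers, the authors deposited 3 tables of log2 fold changes with p-values and adjusted p-values from DESeq2 and edgeR, an unscaled log2 ratio, and baySeq scores. Depth per library is unknown; the constant between the edgeR and unscaled log2 columns gives MPLA libraries 0.859, 0.934 and 2.32 times as deep as the controls at 4 h, 24 h and 3 d. The authors deposited 0 columns of values per sample.

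The deposited log2 values are control over MPLA, and the sign was turned here. The direction follows from how the comparisons name their groups and from Il6, Tnf, Cxcl10 and Nos2, which lipid A induces and which had negative deposited values at each time. Genes were called at an adjusted p under 0.05 in the authors' DESeq2 column, over all genes of a table (17523, 16442 and 15111 with an adjusted p). Implied standard errors assume that the deposited DESeq2 p-values come from its usual normal (Wald) test, which the sources used here do not state. The calculation of the standard error, and of the adjustment over every p-value, was checked on simulated data drawn from that normal test. This checks the arithmetic only and cannot show that the deposited p-values come from that test. Named genes are the 9 genes, the called genes of the pathway lists, and for Cd38, Kmo and Nampt the 5 nearest protein-coding genes. Outside that rule, list genes not called by DESeq2 (Ido1, Qprt, Cyp1a1, Cyp1b1), neighbours, overlapping genes and cell markers are named, chosen after their values were seen. The genes, lists and motifs were chosen with earlier results of these data known. Coordinates are from GENCODE M21 (GRCm38, the same assembly as mm10), matched by gene ID, and start windows from RefSeq. Calculations used Python 3.11.15, pandas 2.3.3, NumPy 2.4.6 and SciPy 1.17.1. Alternatives were the authors' edgeR columns, adjustment over every deposited p-value, a threshold of 0.01, a 2-fold minimum, baySeq, agreement of both tools and the unscaled ratio.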

Additional observations from a re-analysis of the deposited data

How the results depend on the processing

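The direction and call of 19 of the 27 values (9 genes at 3 times) were the same with the edgeR columns of the authors' deposited tables. With edgeR the direction reversed for Nadk (-0.90), Nmnat1 (-0.26) and Kmo (-0.60) at 4 h and for Sirt1 at 3 d (-0.11), the calls of Bst1 at 4 h and Nadk at 24 h were lost, and Sirt1 at 24 h and Nmnat3 at 3 d became called. The unscaled ratio, which carries the difference in depth, reversed Bst1 (-0.19) and Nmnat1 (-0.48) at 4 h and Nadk (-0.029) at 24 h, and also changed the sign of 3 values that DESeq2 did not call, Nadk (-1.13) and Kmo (-0.82) at 4 h and Nmnat3 (0.91) at 3 d. Adjustment over every deposited p-value and a threshold of 0.01 kept all 27 calls, and baySeq changed 1 of them (Sirt1 at 24 h).

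Among the counts, edgeR gave 4 of the 9 genes lower at 4 h against 1, and 8 pathway genes higher and 31 lower at 4 h against 15 and 16; 7 were higher with both tools. A 2-fold minimum left 8 higher and 10 lower pathway genes at 4 h, 9 lower at 24 h, 2 higher and 3 lower at 3 d, and 1 of the 9 genes lower at 24 h. baySeq left 4 pathway genes lower at 3 d. The cause of these differences was not tested, except that a 2-fold minimum can only remove calls. Shares of all genes called with a 2-fold minimum, with baySeq or with both tools were not calculated. Whether other genes lose calls to the same degree is therefore not known. No paired analysis was possible because the authors' deposited tables hold no values per library, and for the same reason no library could be left out. The tables hold no counts, so the depth behind each value is unknown.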
